A study of Mus musculus with 3 samples.

Results

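The urea transporters and aquaporins carry urea, water and small solutes across the membranes of the renal medulla, and 10 of their genes (Slc14a1, Slc14a2, Aqp1, Aqp2, Aqp3, Aqp4, Aqp6, Aqp7, Aqp8 and Aqp11) were examined here among 19938 measured genes. A gene was measured by a probe set, the group of probes on the array that reads 1 transcript, and only probe sets that the platform annotation assigned to a single gene were taken. Each of the 10 genes had 1 such probe set, so no choice between probe sets was needed. Endothelial cells came from the renal medulla of adult male FVB/N mice carrying Tg(TIE2GFP)287Sato, a transgene in which the Tie2 promoter drives green fluorescent protein, and were sorted by fluorescence after collagenase dissociation. There were 3 arrays, replicates 1, 2 and 3 of a single group, and each held RNA of a pool of 2 kidneys. Cells are included only as far as the Tie2 promoter marks them, and neither another compartment nor unsorted medulla was analysed here. The p-values therefore compare levels with limits and not one kind of cell with another.

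In the medulla, blood runs down and up through the vasa recta beside the loops of Henle and the collecting ducts. Urea passes from the ascending vessels into the descending ones, while water leaves the descending vessels and is carried off by the ascending ones, and this countercurrent exchange keeps the interstitium concentrated. The endothelium of the descending vasa recta is known for the urea transporter UT-B, encoded by Slc14a1, and for the water channel encoded by Aqp1. The collecting duct takes up water through Aqp2, Aqp3 and Aqp4 under control of vasopressin, and Slc14a2 encodes the UT-A transporters of the collecting duct and thin descending limb.

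Levels were read against 2 limits. The first was 100 units, a log2 level of 6.64. It was taken from the filter of the study, which required a raw level of 100. The scale of that raw level is not given, so the 2 limits may differ. The second, called the background limit here, was the 95th percentile of the mean levels of 1240 probe sets for olfactory, vomeronasal and bitter taste receptors, genes that most kidney cells are not known to use. It lay at 246 units, a log2 level of 7.94. Because probes differ in affinity, no gene was ranked against another by level. Each limit entered the tests as a fixed number, so a p-value reflects only the spread over the 3 arrays. It covers neither the error of the background limit nor differences in affinity between probe sets. All 12 pan-endothelial markers passed the background limit in every array, against 55.0% of all genes. Pecam1, an adhesion molecule of endothelial junctions, was at 12.53, 12.38 and 12.40 log2 units in replicates 1, 2 and 3. Array medians across the whole table lay within 0.03 log2 units of each other. A feature of the table that touches many results is that 3 of the 10 genes described here and 46.3% of all genes had exactly the same value in all 3 arrays. A further 3 of the 10 and 29.7% of all genes had only 2 different values, so the error of such genes is likely understated.

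All 10 genes reached 100 units in every array, against 85.4% of all genes. limma with Benjamini-Hochberg adjustment over all genes called all 10 above 100 units, against 84.5% of genes. At or above the background limit in every array were 7 of 10 (Slc14a1, Slc14a2, Aqp1, Aqp2, Aqp3, Aqp4 and Aqp11), against 55.0% of genes. limma called 6 of them above it, against 52.6% of genes, and 3 (Aqp6, Aqp7 and Aqp8) below it, against 41.3%, while Aqp4 could not be told from it. The median of the 10 mean levels was 8.35 log2 units, and that of all genes was 8.15. These counts describe the 10 genes, and a set of this size near the share of all genes is not a result about the family.

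**Figure D1:**
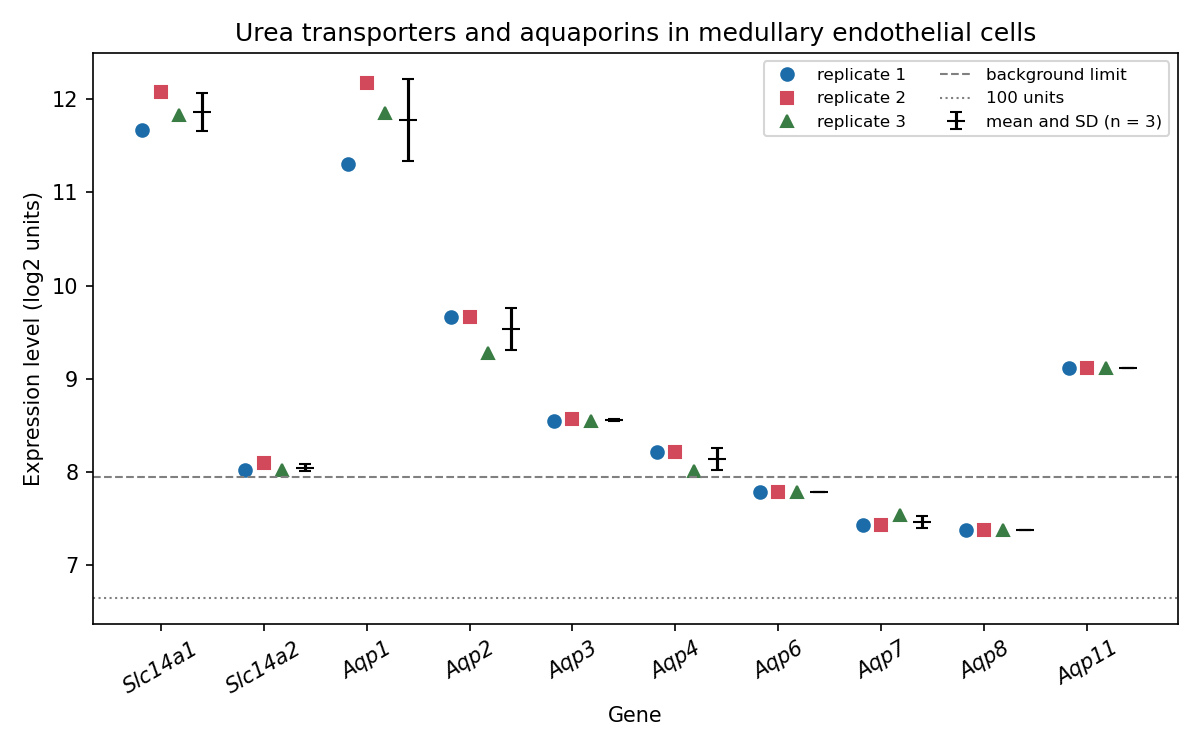
Expression level (y axis, log2 units) of the 10 genes (x axis), with 1 symbol per array and the mean with SD (n = 3) as a black bar; the dashed line is the background limit of 7.94 and the dotted line 100 units. Slc14a1 and Aqp1 lie above 11 in every array, and Aqp6, Aqp7 and Aqp8 lie between the lines.

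Slc14a1 encodes UT-B, the urea transporter of descending vasa recta and red cells. Its level was 3258, 4317 and 3659 units in replicates 1, 2 and 3. All of these arrays were well above the background limit, with replicate 2 highest and replicate 1 lowest, a difference of 1.33-fold. The mean was 3719.6 units, or 11.86 ± 0.20 on the log2 scale (SD, n = 3), and exceeded the background limit 15.1-fold (adjusted p = 0.000578 by limma). None of the 1240 sensory receptor probe sets had a mean as high.

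Its neighbour on chromosome 18, Slc14a2, with no protein-coding gene between them in the RefSeq annotation, stood at the background limit. Slc14a2 encodes the UT-A transporters, which carry urea out of the inner medullary collecting duct. It had 259.8, 273 and 259 units in replicates 1, 2 and 3, a mean of 8.04 ± 0.04 on the log2 scale. That was 1.07-fold the background limit, a log2 difference of 0.10 with a standard error of 0.02 (adjusted p = 0.0388 by limma), and 50 of the 1240 sensory probe sets (4.03%) were as high or higher. The call was lost when the prior variance came from genes with 3 different values (adjusted p = 0.185 by limma), and when replicate 1 or replicate 3 was left out (0.191 and 0.184). A level at this limit does not show that Slc14a2 was silent.

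Aqp1 encodes the water channel of descending vasa recta, thin descending limb, proximal tubule and red cells. It had 2530.2, 4627 and 3711 units in replicates 1, 2 and 3. As for Slc14a1, replicate 2 was highest and replicate 1 lowest, here by 1.83-fold. The mean was 3515.5 units, or 11.78 ± 0.44 on the log2 scale (SD, n = 3), 14.3-fold the background limit (adjusted p = 0.0029 by limma), and no sensory probe set reached it. The SD exceeded that of 96.8% of the genes past the background limit. With 2 arrays left, the adjusted p against the background limit was 0.0503 without replicate 2 and 0.0728 without replicate 3, although each array alone was above 11 log2 units.

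Of the collecting duct water channels, limma called Aqp2 and Aqp3 above the background limit with all arrays, while Aqp4 passed it only narrowly. Aqp2, the apical channel of principal cells that vasopressin moves to the membrane, had 812, 812 and 619 units in replicates 1, 2 and 3. Replicate 3 was lowest, and replicates 1 and 2 were nearly equal. The mean of 9.54 ± 0.23 on the log2 scale was 3.02-fold the background limit (adjusted p = 0.00444 by limma), and 4 sensory probe sets were as high. Without replicate 1 or replicate 2 the call was lost (adjusted p = 0.0796 and 0.0809 by limma).

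Aqp3, the basolateral channel for water and glycerol, had 374, 378 and 374 units. All arrays lay close together, 1.53-fold the background limit on average (log2 8.55 ± 0.01, adjusted p = 5.19e-05 by limma), and 17 sensory probe sets (1.37%) were as high. With the prior variance from genes with 3 different values, the adjusted p was 0.000949 by limma. Against the 99th percentile of the sensory probe sets, Aqp3 lay below the limit (-0.18 log2 units). Aqp4, the basolateral water channel, had 295, 295 and 257 units, with replicate 3 lowest. Its mean of 8.14 ± 0.12 on the log2 scale was 1.15-fold the limit and could not be told from it (adjusted p = 0.0801 by limma). After quantile normalization or median centring it passed (0.045 and 0.0436).

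Aqp11 was the other member past the background limit. It encodes an intracellular aquaporin of the endoplasmic reticulum, known from proximal tubule cells, whose loss causes polycystic kidneys in mice. Its level was 554 units in every array, a log2 level of 9.11 and 2.26-fold the background limit. With the prior variance from genes with 3 different values, the adjusted p was 0.000132 by limma, and 5 sensory probe sets were as high.

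Aqp6, Aqp7 and Aqp8 were under the background limit in every array, 3 of 10 against 42.5% of all genes. Aqp6, a channel of intracellular vesicles in intercalated cells of the collecting duct, had 219.7 units in each array, and its difference of -0.16 log2 units was no longer called with the prior variance from genes with 3 different values (adjusted p = 0.0605 by limma). Aqp7, a glycerol channel of adipocytes and the straight proximal tubule, had 172, 172 and 185 units, with replicate 3 highest. It was 0.716-fold the limit (log2 7.46 ± 0.06, adjusted p = 0.00358 by limma), and the call was lost without replicate 1 or 2 (0.0719 and 0.0734). Aqp8, a channel for water and small solutes known from digestive organs, had 166 units in each array, 0.676-fold the limit (adjusted p = 0.0012 by limma with the prior variance from genes with 3 different values). Of the sensory probe sets, 92 (7.42%) were as high as Aqp6, 161 (13.0%) as Aqp7 and 184 (14.8%) as Aqp8.

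**Figure D2:**
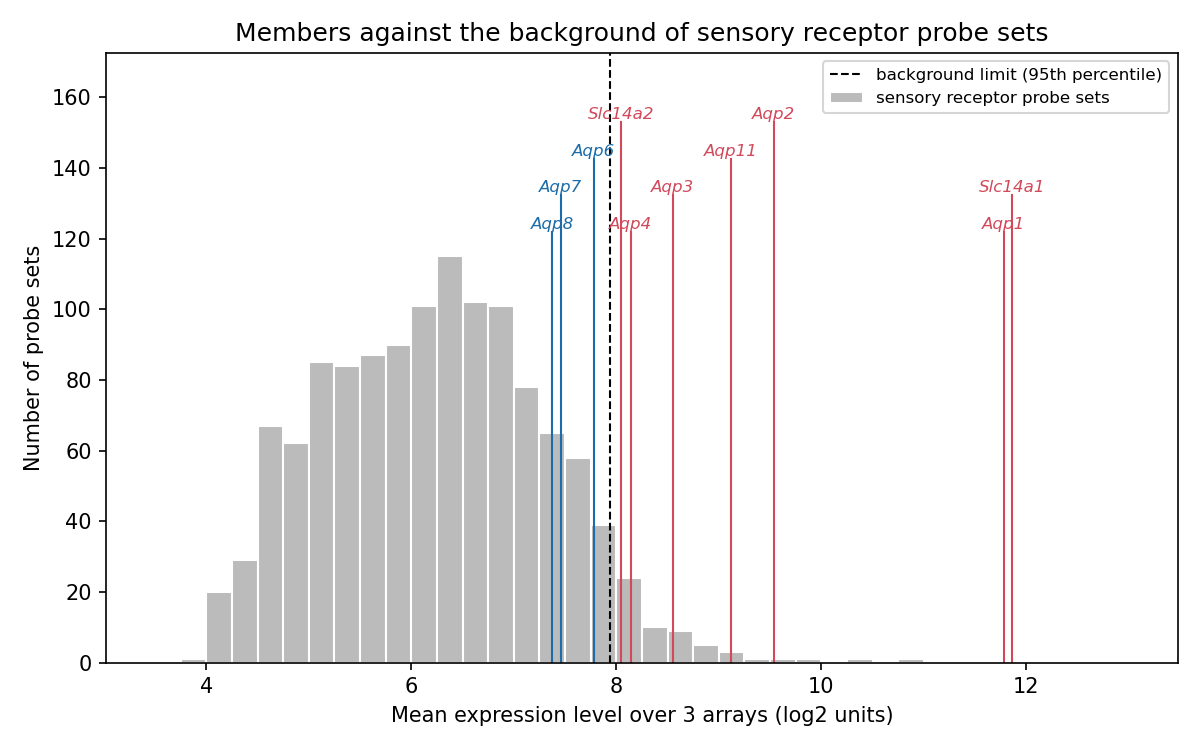
Number of probe sets (y axis), among 1240 probe sets for sensory receptors, by mean expression level over 3 arrays (x axis, log2 units). A line marks the mean of each of the 10 genes, red at or above the background limit (dashed, 7.94) and blue under it. Slc14a1 and Aqp1 lie beyond every grey bar, while Slc14a2 and Aqp4 lie just above the limit.

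The 4 other aquaporin genes of the mouse with a probe set had the same value in every array. Mip, the lens channel, was at 8.01 log2 units, just above the background limit. Aqp5, known from glands and lung, was at 8.70, and Aqp12, known from pancreas, at 8.57. Aqp9, a glycerol channel of liver, was at 7.68, under the limit. With them, 10 of 14 genes of the 2 families passed the background limit in every array, against 55.0% of all genes, a count chosen after seeing the data. Aqp2 and Aqp6 lie on chromosome 15 on either side of Aqp5, and Aqp3 and Aqp7 are neighbours on chromosome 4. In both clusters genes stood on opposite sides of the limit, with Aqp2 and Aqp3 above it and Aqp6 and Aqp7 below it.

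The bases before the start of Aqp1 and Aqp2 are shown because their levels varied over the arrays in different ways. RefSeq promoters of GRCm38.p6 were found for 7 of the 10 genes in 8 windows, and the entries for Slc14a1, Slc14a2 and Aqp4 were missing. Each is printed 5′ to 3′, with capitals at matches on either strand to any of 4 short motifs. The first was GGAA, the core of sites for ETS factors, which are common in endothelial cells. The second was TGACG, part of the cAMP response element through which vasopressin signaling acts. The third was AGATAA, a site of GATA factors, and the last was the E-box CACGTG. The windows are chr6:55336049-55336298 for Aqp1 and chr15:99578806-99579055 for Aqp2, each 250 bases on the plus strand ending at the base before the annotated start.
Aqp1: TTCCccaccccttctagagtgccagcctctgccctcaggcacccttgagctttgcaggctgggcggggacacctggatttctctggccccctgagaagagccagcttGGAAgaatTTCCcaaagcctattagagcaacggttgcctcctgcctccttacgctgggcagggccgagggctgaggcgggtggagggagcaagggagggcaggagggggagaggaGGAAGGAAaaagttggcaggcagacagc
Aqp2: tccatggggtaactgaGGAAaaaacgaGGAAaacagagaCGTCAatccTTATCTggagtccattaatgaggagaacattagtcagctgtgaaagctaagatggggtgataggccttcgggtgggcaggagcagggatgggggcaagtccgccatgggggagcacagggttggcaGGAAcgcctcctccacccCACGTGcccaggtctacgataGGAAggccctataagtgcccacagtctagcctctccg
The Aqp1 window held 5 GGAA matches, including an adjacent pair starting 28 and 24 bases before the start, and none of the other 3 motifs. The Aqp2 window held 4 GGAA matches and 1 match to each of the others, beginning 211 bases before the start for the cAMP response element part, 202 for the GATA site and 58 for the E-box. Of all 32851 such windows, 93.4% held the ETS core, 17.8% the cAMP response element part, 9.99% the GATA site and 6.02% the E-box, so the ETS core sets neither gene apart. Among the 8 windows of the members, the E-box matched in 3, those of Aqp2, Aqp6 and Aqp8. The GATA site matched in 2, that of Aqp2 and a window of Aqp7, and the cAMP response element part only in that of Aqp2. The TonE motif of hypertonic response, which contains GGAA, matched in 1 of the 8 windows, a window of Aqp7, and in 4.31% of all windows. A match describes letters and not binding.

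The spread over the arrays was uneven among the 10 genes. A range above 0.2 log2 units was found for 4 (Slc14a1, Aqp1, Aqp2 and, with 0.202, only just Aqp4), against 20.9% of all genes. Slc14a1 and Aqp1 both had the order replicate 1, replicate 3, replicate 2 from low to high, an order that 16.5% of the 4781 genes with 3 different values showed, so it is a common one. Aqp2 and Aqp4 both had their lowest value in replicate 3. With 3 arrays of a single group, these differences have no test.

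Markers of other cells moved between the arrays as well. Umod, the uromodulin gene of the thick ascending limb, was at 11.61, 10.40 and 9.49 log2 units in replicates 1, 2 and 3, and Slc12a1, its salt cotransporter, at 9.68, 8.07 and 7.81. Both were highest in replicate 1, the array in which Slc14a1 and Aqp1 were lowest. Of 9 thick ascending limb markers 7 passed the background limit in every array, against 55.0% of all genes. The list summed to 6234, 3897 and 3046 units. Most of that difference lay in Umod and Slc12a1. The other 7 markers summed to 2293, 2279 and 2100 units, and 4 of them had the same value in every array. Egf was highest in replicate 1 (435, 285 and 285 units) and Cldn10 in replicate 2 (434, 541 and 363 units), while Cldn16 was lowest in replicate 1. A single highest value lay in replicate 1 for 3 of the 9 markers and in replicate 2 for 1. Pan-endothelial markers were also highest in replicate 1, where 9 of 12 had their single highest value, and summed to 58453.5, 50756.7 and 52159.5 units. The part of these shifts in the levels of Slc14a1 and Aqp1 was not tested.

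Arterial genes gave a mixed picture. The arterial connexin Gja5 was at 10.27, 10.69 and 10.33 log2 units and Gja4 at 9.02, 9.31 and 8.89, both highest in replicate 2 as Slc14a1 and Aqp1 were. The ephrin Efnb2 was at 11.04, 10.81 and 10.85, highest in replicate 1. Of 10 arterial and descending vasa recta markers 9 passed the background limit in every array, all but Bmx, against 55.0% of all genes. The sums of the 10 markers were 7565, 7859 and 7219 units. Without Gja5 the other 9 summed to 6333, 6211 and 5934 units, highest in replicate 1. Without Gja5 and Efnb2 the other 8 summed to 4228, 4413 and 4093 units, highest in replicate 2. A single highest value lay in replicate 1 for 2 of the 10 markers, in replicate 2 for 3 and in replicate 3 for 1. In bulk RNA, a smaller share of a cell type and less RNA per cell cannot be told apart.

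Principal cell markers of the collecting duct were mostly under the background limit, which 55.0% of all genes passed in every array. Of 9 such markers 3 passed the background limit in every array and 6 did not, among them the sodium channel subunits Scnn1b and Scnn1g. Those past it were Avpr2, the vasopressin receptor (8.50 in every array), Hsd11b2 (8.25 in every array) and Fxyd4, a regulator of the sodium pump, at 9.24, 10.32 and 9.16. Fxyd4 was highest in replicate 2, whereas Aqp2 was nearly equal in replicates 1 and 2 and lower in replicate 3. The list summed to 2188, 2838 and 2129 units in replicates 1, 2 and 3. The difference lay in Fxyd4, since the other 8 markers summed to 1584, 1563 and 1557 units and 6 of them had the same value in every array. The part of carried-over principal cells in the levels of Aqp2 and Aqp3 was not tested.

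Most markers of the other cells known to carry Aqp1 or Slc14a1 did not pass the background limit in every array. It was passed by 55.0% of all genes. Of 5 thin limb markers measured 2 passed the background limit, Cldn4 and Cryab, a small heat shock protein that other cells of the medulla use as well. Cryab was at 11.19, 12.04 and 12.04 log2 units, lowest in replicate 1 as Aqp1 was. It made up most of the sum of the thin limb list, which was 3113, 5050 and 5134 units in replicates 1, 2 and 3. The other 4 markers summed to 774, 827 and 910 units. Without Bst1 as well, the remaining 3 summed to 553, 559 and 559 units. The part of thin limb cells in the level of Aqp1 was not tested. Of 9 proximal tubule markers 3 passed, Slc34a1 (8.40), Slc5a2 (8.41) and Slc22a8 (8.04). The endocytic receptors Lrp2 and Cubn were under the limit, at 7.28 and 6.30 in every array. The list summed to between 1838 and 1842 units, but 8 of the 9 had the same value in every array. Of 6 red cell markers measured 2 passed, Alas2 (8.12, 8.12 and 8.19) and Ermap (8.26). Slc4a1, the anion exchanger of the red cell membrane, lay almost on the limit (0.996-fold) without passing it, and Klf1 (7.69) was under it. The sums of the 6 were 1315, 1321 and 1330.3 units, and 4 of the 6 had the same value in every array. Globin genes had no probe set naming a single gene and were not analysed here. The part of red cells in the levels of Slc14a1 and Aqp1 was not tested.

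**Figure D3:**
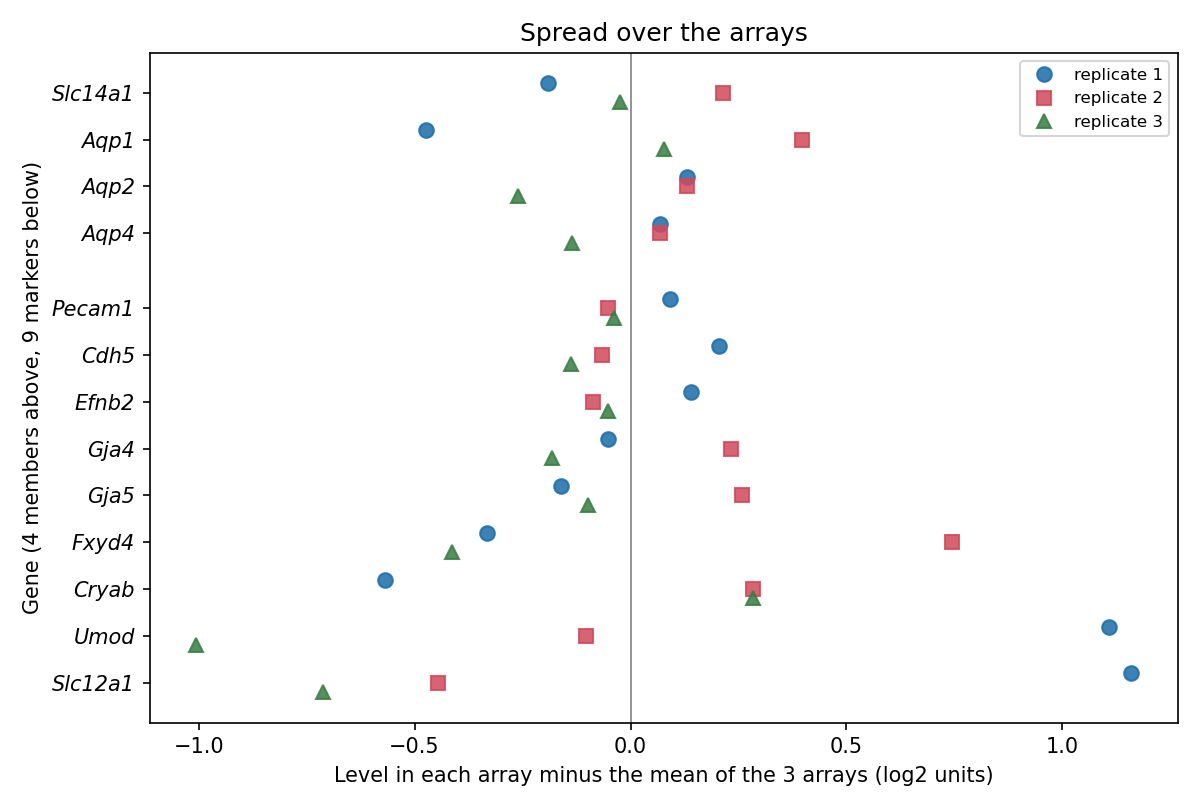
Level in each array minus the mean of the 3 arrays (x axis, log2 units) for Slc14a1, Aqp1, Aqp2 and Aqp4 and for 9 marker genes (y axis), with 1 symbol per array. Replicate 1 is lowest for Slc14a1, Aqp1, Gja5 and Cryab and highest for Pecam1, Cdh5, Efnb2, Umod and Slc12a1.

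Genes that act with the transporters were measured as well. In the list for vasopressin signaling and aquaporin trafficking, 13 of 17 genes passed the background limit in every array, against 55.0% of all genes. limma called 12 above and 4 below it, against 52.6% and 41.3% of all genes. The receptors Avpr1a (7.62) and Avpr1b (7.68) and the cyclase Adcy3 (7.63) were under it, all with the same value in every array, while Avpr2 was above. Of 9 genes for urea production and ammonia transport 2 passed, Asl and Rhbg, and the arginases Arg1 (7.93) and Arg2 (7.41, 7.41 and 7.42) did not. The liver enzymes Otc (5.71) and Cps1 (7.12), which start the urea cycle, were also under the limit.

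Genes of the glycerol and hypertonicity lists were mostly past the limit, which 55.0% of all genes passed in every array. Of 10 genes listed for glycerol handling 9 passed in every array, and limma called 8 above the limit, against 52.6% of all genes. This list also held lipid genes. Among them were Cd36, a receptor for long-chain fatty acids (13.13, 12.78 and 12.65), and Gpihbp1, which acts in lipolysis of chylomicrons (12.01, 11.78 and 11.04). The listed glycerol kinase gene Gk was not measured. Gpd1, which links glycerol to glycolysis, was under it at 7.88, whereas its mitochondrial counterpart Gpd2 was at 9.62, 9.71 and 9.36. Lpl, the lipoprotein lipase, was at 8.48, 7.95 and 8.02 and could not be told from the limit (adjusted p = 0.31 by limma). Of 6 hypertonicity genes 5 passed, with the transcription factor Nfat5 at 11.67, 11.67 and 11.91 and the inositol transporter Slc5a3 at 10.67, 10.88 and 11.02. The betaine transporter Slc6a12, at 7.80 in every array, did not pass.

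**Figure D4:**
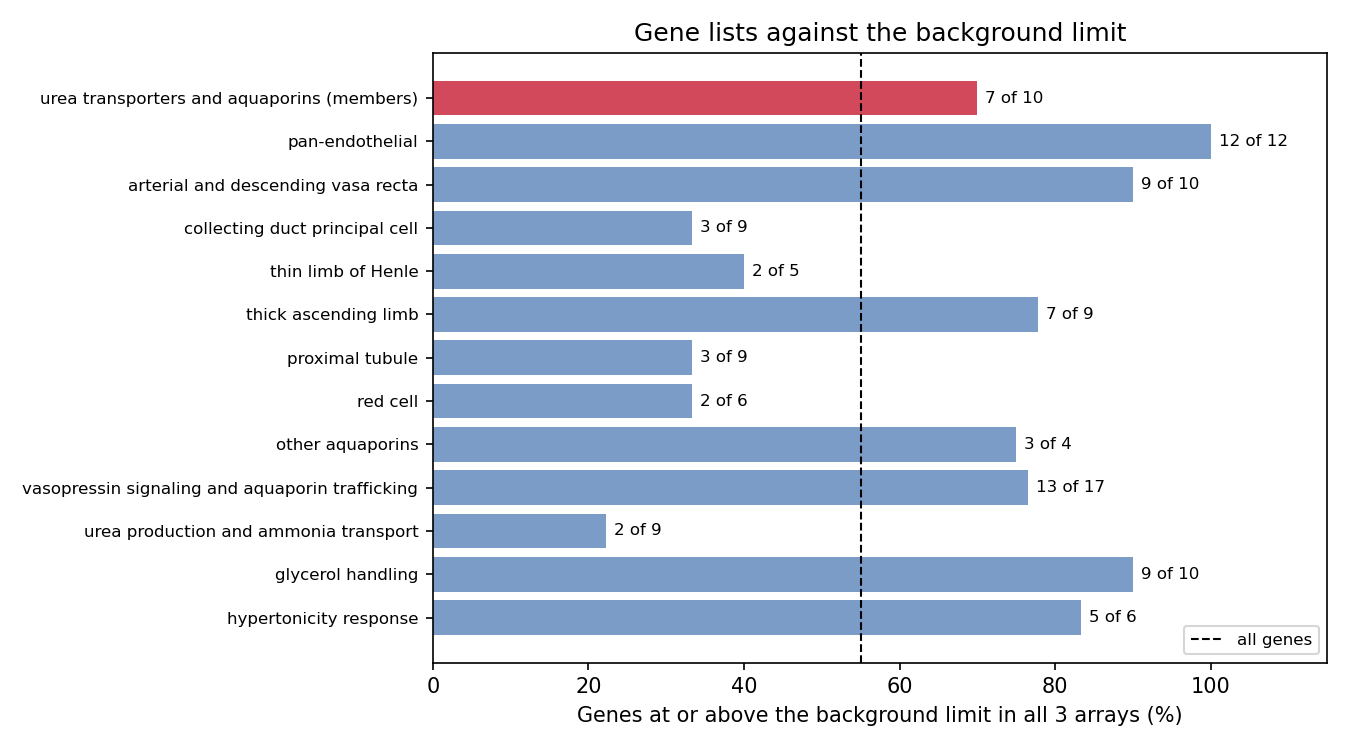
Share of measured genes at or above the background limit in all 3 arrays (x axis, %) for the 10 urea transporter and aquaporin genes (red) and 12 other lists (blue), with the number of genes beside each bar; the dashed line is the share of all 19938 genes, 55.0%. The 10 genes had 7 past the limit, principal cell markers 3 of 9 and pan-endothelial markers 12 of 12.

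Other genes had array profiles like those of the 4 variable members, by the root mean square difference of mean-centred log2 levels over 3 arrays among 10956 genes past the background limit. For Aqp1 the nearest were Ndufaf1 (0.013), Tal2 (0.0299) and Ikzf5 (0.034), and 7 genes lay within 0.05. For Slc14a1 they were Sgpl1 (0.0048), Gm1976 (0.0124) and Slc19a1 (0.0136), with 71 genes within 0.05. Aqp1 and Slc14a1 differed from each other by 0.203 in this measure, since Aqp1 moved further. For Aqp2 the nearest were Prkab1, Hdhd2 and Cryz, with 114 genes within 0.05, and for Aqp4 Lgals9, Dnttip1 and Trmt1l, with 359. Aqp2 and Aqp4 differed by 0.0892. Over 3 arrays many genes share a profile, so these names carry little weight.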

How the data were processed

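RNA from sorted cells was amplified in 1 round with the NuGEN WT-Ovation Pico kit, labelled with biotin and read on 1-colour Affymetrix Mouse Gene 1.0 ST arrays. The authors deposited log2 levels for 35557 probe sets, made with Affymetrix Expression Console per the labels, and their text names RMA normalization. That they are on a log2 scale follows only from their range, 3.55 to 14.4. The raw scale of their filter and the genome build are not given in the sources used here. Background calls and batches were not analysed here, and the number of arrays limits the precision. Replicates are described as independent samples.

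Single-gene probe sets (21789) were renamed through Entrez identifiers to RefSeq symbols (99.6% matched). A gene was represented by its probe set with the highest mean. limma 3.58.1 in R 4.3.3 fitted an intercept to the log2 level minus each limit across all 19938 genes (lmFit, eBayes, two-sided, Benjamini-Hochberg, threshold 0.05). This step was tested on simulated data whose spread was drawn from genes with 3 different values. The simulated levels held no equal values, so the fit was not tested for genes with repeated values. Python 3.11.15, numpy 2.4.6, pandas 2.3.3 and matplotlib 3.10.9 were used. Alternatives were other limits, probe set rules, normalizations, priors and each replicate left out. Members and lists were chosen with earlier results of these data known. Named were all members, the first 4 measured genes of a list at most, up to 3 genes on the other side of the background limit from most of it, and the 3 nearest profiles of members with a range above 0.2 log2 units. Further list genes were named where the sum or the make-up of a list rested on them.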

Additional observations from a re-analysis of the deposited data

How the results depend on the processing

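With each replicate left out, 4 to 5 of the 10 genes were called above the background limit (6 with all arrays), 2 to 3 below it (3 with all arrays) and 9 to 10 above 100 units (10 with all arrays). The calls lost were those of Slc14a2, Aqp1, Aqp2 and Aqp7 against the background limit and, without replicate 3, that of Aqp1 against 100 units (adjusted p = 0.0506 by limma), while Aqp4, with equal values in replicates 1 and 2, was called above the background limit without replicate 3. A fit on 2 arrays has few degrees of freedom.

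With a limit of 200 units, 2 genes were called below it, Aqp7 (-0.19 log2 units) and Aqp8 (-0.27). With the background limit at the 99th percentile of sensory probe sets (8.73 log2 units), 4 genes passed it in every array and 6 were called below it, among them Slc14a2 (-0.69), Aqp3 (-0.18) and Aqp4 (-0.59), and at the 90th percentile (7.61) Aqp6 lay above it (0.17). Slc14a1, Aqp1, Aqp2 and Aqp11 kept their side of these limits. Each of the 10 genes had 1 probe set, so other probe set rules could not change its level. No paired analysis was possible because the samples form a single group.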

Other observations

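Marker lists of further cell types were measured in the same arrays, where 55.0% of all genes passed the background limit in every array. Of 8 intercalated cell markers 2, Slc4a9 and Rhbg, passed the background limit in every array, and the summed level was 1665, 1658 and 1620.1 units in replicates 1, 2 and 3. Of 10 pericyte and smooth muscle markers 4 passed, with the defining genes Pdgfrb and Acta2 under the limit at 7.56 log2 units each. Of 5 adipocyte markers 2 passed, Plin1 (8.11) and Retn (8.22, 8.22 and 8.23), and the adipokine Adipoq was under the limit at 6.21. Of 7 macrophage markers 2 passed, Cd68 (7.99) and C1qb (7.96), both close to the limit. C1qa (7.91) was just under it, and Adgre1 (6.18) and Csf1r (7.54, 7.55 and 7.54) were further under. All 5 venous and fenestrated markers passed, among them Plvap, the diaphragm protein, at 12.00 in every array, with Nrp2 at 10.57, 10.17 and 10.29. That list summed to 13959, 11199 and 9741 units in replicates 1, 2 and 3, and its member Aplnr, the apelin receptor, stood at 12.55, 11.82 and 10.99 log2 units, highest in replicate 1. Without Aplnr the other 4 markers summed to 7968, 7586 and 7703 units.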
